A study of Mus musculus with 10 samples.

Results

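The variable segments of the antigen receptor genes were followed in whole aortas of 10 male mice with Affymetrix Mouse Gene 2.0 ST arrays. Members were all probe sets whose single gene symbol in the platform annotation names a variable segment of an immunoglobulin locus, or a variable or joining segment of a T cell receptor locus. A probe set is a group of short array probes summarised as 1 value. Of 41345 probe sets, which carry 22180 symbols, 40 probe sets with 25 symbols were members. They were 19 immunoglobulin probe sets (17 symbols) and 21 T cell receptor probe sets (8 symbols). All 40 are variable segments by the reference gene table, and 0 joining segments were found by the rule.

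Antigen receptors are assembled in developing lymphocytes by V(D)J recombination, in which the Rag1 and Rag2 proteins cut the DNA and join a variable segment to a joining segment, with a diversity segment between them in some chains. A B cell or T cell clone therefore transcribes few of the many segments its genome holds, and the signal of a segment in a tissue follows the number of cells that use it and the RNA that each makes. In mice without apolipoprotein E (ApoE), B and T cells lie mainly in the outer layer of the aorta and the fat around it, and some gamma delta T cells there are known producers of the cytokine IL-17.

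Both groups lacked ApoE, which clears lipoprotein remnants from plasma, so every mouse was prone to hyperlipidemia and atherosclerosis, and no group with intact ApoE was analysed here. The ApoE knockout group (n = 5) lacked ApoE alone. The ApoE/IL-17 double knockout group (n = 5) came from crossing IL-17-/- mice into the ApoE-/- line. The deletions are carried in all cells, so neither group isolates an effect in the aorta from effects elsewhere. All mice had a C57BL/6 background, were 11 weeks old at collection and had been on a high fat diet for the last 3 weeks, since the age of 8 weeks. The comparison asks how aortic expression differs when IL-17 is lacking in addition to ApoE. The protocol texts of the ApoE knockout samples describe another cross and differ from those of the double knockout samples. If the groups were handled separately, handling and genotype cannot be told apart. The sources used here do not say whether lymph nodes, thymus or fat were trimmed from the aortas.

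Differences are given as double knockout minus ApoE knockout on the log2 scale, and "lower", "higher" and "called" refer to a limma adjusted p under 0.05, adjusted over all 41345 probe sets. Smooth muscle genes, which define the bulk of the aortic wall, had mean levels of 6.07 to 13.46, with Acta2 at 13.40 and 13.52 in the groups. Il17a (4.41 against 4.66, adjusted p = 0.0931) and Apoe (6.31 against 6.98) do not check the genotype labels, since the sources used here do not place their probes relative to the deletions. The deposited values had a median difference of 0.15 over all probe sets, and 0.29 over 1438 probe sets of olfactory, vomeronasal and taste receptors, genes with no known use in aorta. The 95th percentile of those receptors' mean levels, 5.79, is called the receptor level and marks where low values begin to be uncertain. How bright each probe set would be without its target is not known.

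ApoE knockout replicates 2, 3 and 4 stood apart in genes of immature T cells. Dntt, which adds nucleotides at the joints of receptor genes, measured 5.74, 8.76, 8.43, 7.79 and 5.10 in ApoE knockout replicates 1 to 5. In double knockout replicates 1 to 5 it measured 6.86, 5.83, 5.51, 5.66 and 6.10. Rag2, the partner of the recombinase, measured 4.48, 7.44, 6.61, 6.35 and 4.13 in the ApoE knockout, and between 4.31 and 5.34 in the double knockout. Dntt and Rag2 were thus high in the same 3 ApoE knockout aortas and at double knockout levels or below in the other 2. These arrays were picked out after their values were seen. The main counts of called segments and of all called probe sets are also given without them. Counts for marker genes are given with all arrays only.

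Immunoglobulin segments were lower in the double knockout aortas. Of 19 probe sets, 7 were lower and 0 higher by limma (10 lower and 0 higher at an unadjusted p under 0.05). Over the whole array 25.9% of probe sets were called, 4.72% lower and 21.1% higher, against 36.8% lower among the immunoglobulin segments. The difference was below 0 in 18 of 19, with a median of -0.69. In 6 of the 7 lower probe sets every double knockout aorta lay below every ApoE knockout aorta, an absence of overlap seen in 3.46% of all probe sets in that direction and in 15.3% in the other. Fewer cells that use a segment and less RNA per cell cannot be told apart in these whole tissues.

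The segments that fell belong to light chains, which pair with a heavy chain to form the antibody. Iglv1, the variable segment used by most lambda light chains in mice, measured 6.32, 5.94, 6.69, 6.99 and 7.18 in ApoE knockout replicates 1 to 5 and 5.04, 4.83, 4.49, 4.94 and 5.68 in double knockout replicates 1 to 5. No double knockout aorta reached the lowest ApoE knockout value. The difference was -1.63 (SE 0.26, limma adjusted p = 0.0024, 3.09-fold lower), and the double knockout mean of 5.00 lay below the receptor level, so background may limit the fold.

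Among the kappa segments, 6 of 15 probe sets were lower. Igkv5-43, on its probe set 17459421, measured 10.66, 10.10, 9.92, 10.62 and 9.85 in the ApoE knockout and 9.82, 9.20, 9.10, 8.81 and 9.04 in the double knockout. Igkv4-72 measured 7.28, 6.83, 6.81, 7.54 and 6.81 against 6.19, 5.73, 6.46, 6.10 and 6.10. In both the groups were separate, and ApoE knockout replicates 1 and 4 were the highest. Igkv5-43 was 2.05-fold lower (-1.04, SE 0.22, adjusted p = 0.0077) and Igkv4-72 was 1.92-fold lower (-0.94, SE 0.18, adjusted p = 0.0048), each with its double knockout mean above the receptor level. The other Igkv5-43 probe sets, both below the receptor level, were not called (-0.59 and -0.41, adjusted p = 0.158 and 0.348). Their mean levels were 3.89 and 3.45, beside 9.71 for 17459421, so the probe sets of this symbol disagree in level.

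Igkv4-70 measured 6.86, 6.26, 6.46, 7.07 and 6.30 in the ApoE knockout and 5.66, 5.72, 5.93, 6.17 and 5.91 in the double knockout, again highest in ApoE knockout replicates 1 and 4 and without overlap (-0.71, SE 0.17, adjusted p = 0.0132). Igkv1-133 measured 6.50, 5.57, 5.74, 5.79 and 5.35 against 4.25, 4.46, 4.58, 4.59 and 5.10. ApoE knockout replicate 1 was the highest, and the lowest ApoE knockout aorta exceeded the highest double knockout aorta (-1.19, SE 0.21, adjusted p = 0.0041). Igkv6-14 lay lower on the array scale, at 3.29 to 3.93 in the ApoE knockout and 2.54 to 3.00 in the double knockout, also without overlap (-0.87, SE 0.13, adjusted p = 0.0015). Igkv4-59 fell from 4.68 ± 0.50 to 3.30 ± 0.44 (SD, n = 5 per group, -1.38, adjusted p = 0.0053), and its groups touched at 4.00. For Igkv1-133, Igkv6-14 and Igkv4-59 both group means lay below the receptor level.

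**Figure D1:**
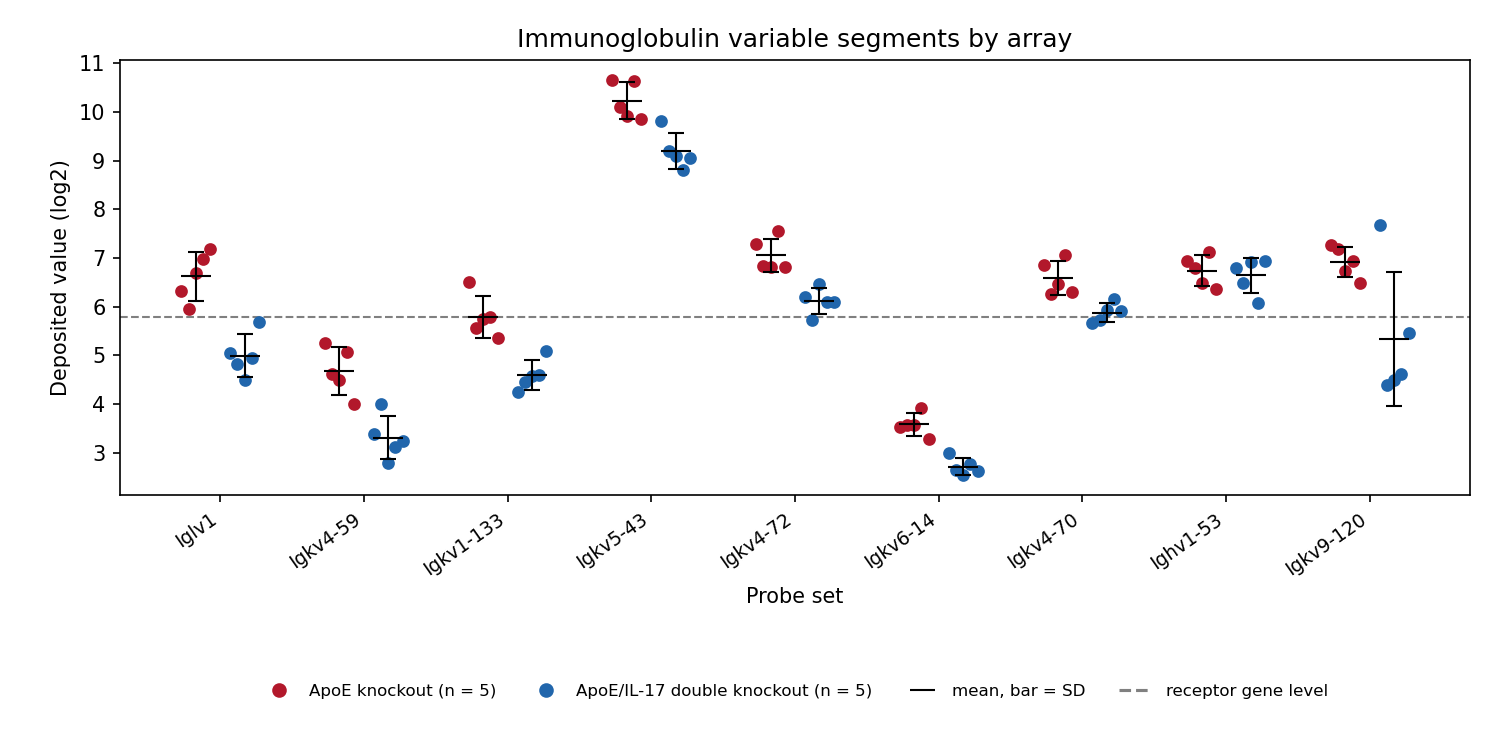
Deposited log2 value (vertical axis) of the 7 immunoglobulin segment probe sets called lower, of Ighv1-53 and of Igkv9-120 (horizontal axis), for 5 ApoE knockout (red) and 5 double knockout (blue) aortas, drawn from replicate 1 at the left to 5 at the right, with the mean and SD as bars and the receptor level of 5.79 as a dashed line. The groups are separate in 6 of the 7 called probe sets, Igkv4-59 touches at 4.00, Ighv1-53 overlaps, and in Igkv9-120 double knockout replicate 1 at 7.67 lies far above the other double knockout aortas.

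The Igkv4 family had 4 measured members, of which 3 were lower. The fourth, Igkv4-91, known from B-1 B cells that bind phosphatidylcholine, had a difference of -0.74 (SE 0.25, adjusted p = 0.0539). Its double knockout replicate 5, at 6.80, lay within the ApoE knockout range of 6.36 to 7.27, and without that array the adjusted p was 0.0186 (0.0430 without ApoE knockout replicate 1). Igkv9-120, chosen after its values were seen, measured 7.26, 7.18, 6.74, 6.94 and 6.49 in the ApoE knockout and 7.67, 4.40, 4.49, 4.62 and 5.45 in the double knockout. Double knockout replicate 1 was the highest of all 10 aortas and the other 4 were the lowest. With all arrays the difference was -1.59 (SE 0.55, adjusted p = 0.0547), and without double knockout replicate 1 it was -2.18 (adjusted p = 0.000936).

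Heavy chain segments were few and were not called. The 3 Ighv probe sets had differences of -0.02 to -0.10, with 0 called by limma and 0 at an unadjusted p under 0.05. Ighv1-53 measured 6.94, 6.80, 6.49, 7.11 and 6.36 in the ApoE knockout and 6.80, 6.49, 6.91, 6.08 and 6.94 in the double knockout, 2 overlapping ranges. Its difference was -0.10 (95% interval -0.52 to 0.33, adjusted p = 0.737). Ighv1-54 and Ighv1-47 had means of 1.90 to 2.74, far below the receptor level. The remaining kappa segments also overlapped and were not called: Igkv15-103 (-0.69), Igkv8-19 (-0.32), Igkv9-124 (-0.18), Igkv8-30 (-0.12) and Igkv6-23 (0.05).

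The share of lower calls among immunoglobulin segments exceeded the background on either side of the receptor level. Of 11 probe sets below it, 3 were lower (27.3%), where 1.77% of all probe sets below it were lower and 27% higher. Of 8 at or above it, 4 were lower (50%), where 7.46% of all such probe sets were lower and 15.7% higher. The same 7 calls were made after quantile normalization, after centring each array on its median and after centring it on the receptor probe sets. In that order 6.98%, 15.3% and 10.7% of all probe sets were lower.

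Without ApoE knockout replicates 2, 3 and 4, which leaves 2 against 5 arrays, 1 immunoglobulin probe set remained lower, Iglv1 (-1.75, adjusted p = 0.0374). The number called over the whole array dropped from 10692 to 1477, with 0.622% of all probe sets lower and 2.95% higher. The immunoglobulin median was -0.70 with 2 against 5 arrays, beside -0.69 with all arrays. The other 6 called probe sets had differences of -0.70 to -1.33 there, with adjusted p between 0.0511 and 0.0976, and 9 immunoglobulin probe sets were lower at an unadjusted p under 0.05.

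Genes that act with the immunoglobulin segments fell in part. Of 10 probe sets for heavy chain constant regions and the J chain that links IgM and IgA, 4 were lower and 0 higher. The counts were the same under the other 3 scalings. Of all probe sets 4.72% were lower as deposited and 6.98% to 15.3% under the other scalings. The 4 lower probe sets of this list all carry the symbol Ighm, the IgM heavy chain. The Ighm probe set 17284349 went from 10.10 ± 0.25 to 9.25 ± 0.41 (SD, n = 5 per group, adjusted p = 0.0113), and 17284660 from 5.46 ± 0.56 to 3.67 ± 0.79 (adjusted p = 0.0083). For 17284660 both group means lay below the receptor level. Ighm has 7 probe sets, and the other 3 had differences of -0.02 to -0.29 without a call. Ighg3 (0.13 and 0.01) and Jchain (-0.07) did not pass.

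B cell genes were lower as well, in 7 of 15 (46.7%, beside 4.72% of all probe sets), with 0 higher and a median difference of -0.52. Under the other scalings 10 to 12 were lower, where 6.98% to 15.3% of all probe sets were. Cd79b and Cd79a, the signaling chains of the B cell receptor, were 3.37-fold and 2.64-fold lower (-1.75 and -1.40, adjusted p = 0.00027 and 0.00044), without overlap. Plasma cell genes, which mark antibody-secreting cells, showed 0 of 11 probe sets lower and 1 higher (9.09%, beside 21.1% of all probe sets). At an unadjusted p under 0.05 the counts were also 0 lower and 1 higher. The plasma cell median of 0.02 turned to -0.15 after quantile normalization and -0.30 after centring on the receptor probe sets. The plasma cell counts were 0 lower and 1 higher after quantile normalization, 2 and 1 after centring on array medians, and 1 and 0 after centring on the receptor probe sets. The plasma cell marker Sdc1 gave 7.55 against 7.49 on the first of its probe sets and 5.06 against 5.89 on the second (adjusted p = 0.00069), so its probe sets disagree. Xbp1, which drives antibody secretion, had a difference of -0.23 as deposited (adjusted p = 0.129) and -0.18 after quantile normalization (adjusted p = 0.25). It was lower after centring on array medians (-0.43, adjusted p = 0.0206) and on the receptor probe sets (-0.55, adjusted p = 0.0235).

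Other cell types moved beside the immunoglobulin segments, in part with the scaling. Smooth muscle genes were higher in 5 of 11 probe sets as deposited (45.5%), among them Smtn (0.39), Des (0.54) and Actg2 (0.59, the largest difference). They were higher in 2 after quantile normalization and in 0 after either centring. Their median went from 0.28 to -0.04 after centring on the receptor probe sets. Beside these, 21.1% of all probe sets were higher as deposited and 7.17% after quantile normalization. After centring, 6.84% were higher on array medians and 1.73% on the receptor probe sets. Fibroblast genes were higher in 4 of 11 as deposited (36.4%), led by the probe sets for Col1a2 (0.61) and Lum (0.44). After centring on the receptor probe sets 0 were higher, and their median turned to -0.08. As deposited, the other probe sets of Smtn (0.17, adjusted p = 0.177) and Col1a2 (0.25, adjusted p = 0.209) were not called. Of 12 macrophage genes 1 was lower (8.33%), the scavenger receptor Cd163 (-0.81), and of 10 endothelial genes 1 was lower (10%), Tek (-0.46). Over the whole array 4.72% of probe sets were lower. Tek did not pass once the arrays were quantile normalized (adjusted p = 0.0608). After either centring 2 macrophage and 6 endothelial genes were lower. Of all probe sets 15.3% were then lower on array medians and 10.7% on the receptor probe sets. The endothelial median was -0.44 on array medians and -0.56 on the receptor probe sets, beside -0.24 as deposited. Counts of 0 higher or 0 lower for the constant region, B cell, smooth muscle and fibroblast probe sets as deposited were also 0 at an unadjusted p under 0.05. The part of these cell types in the immunoglobulin result was not tested.

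**Figure D2:**
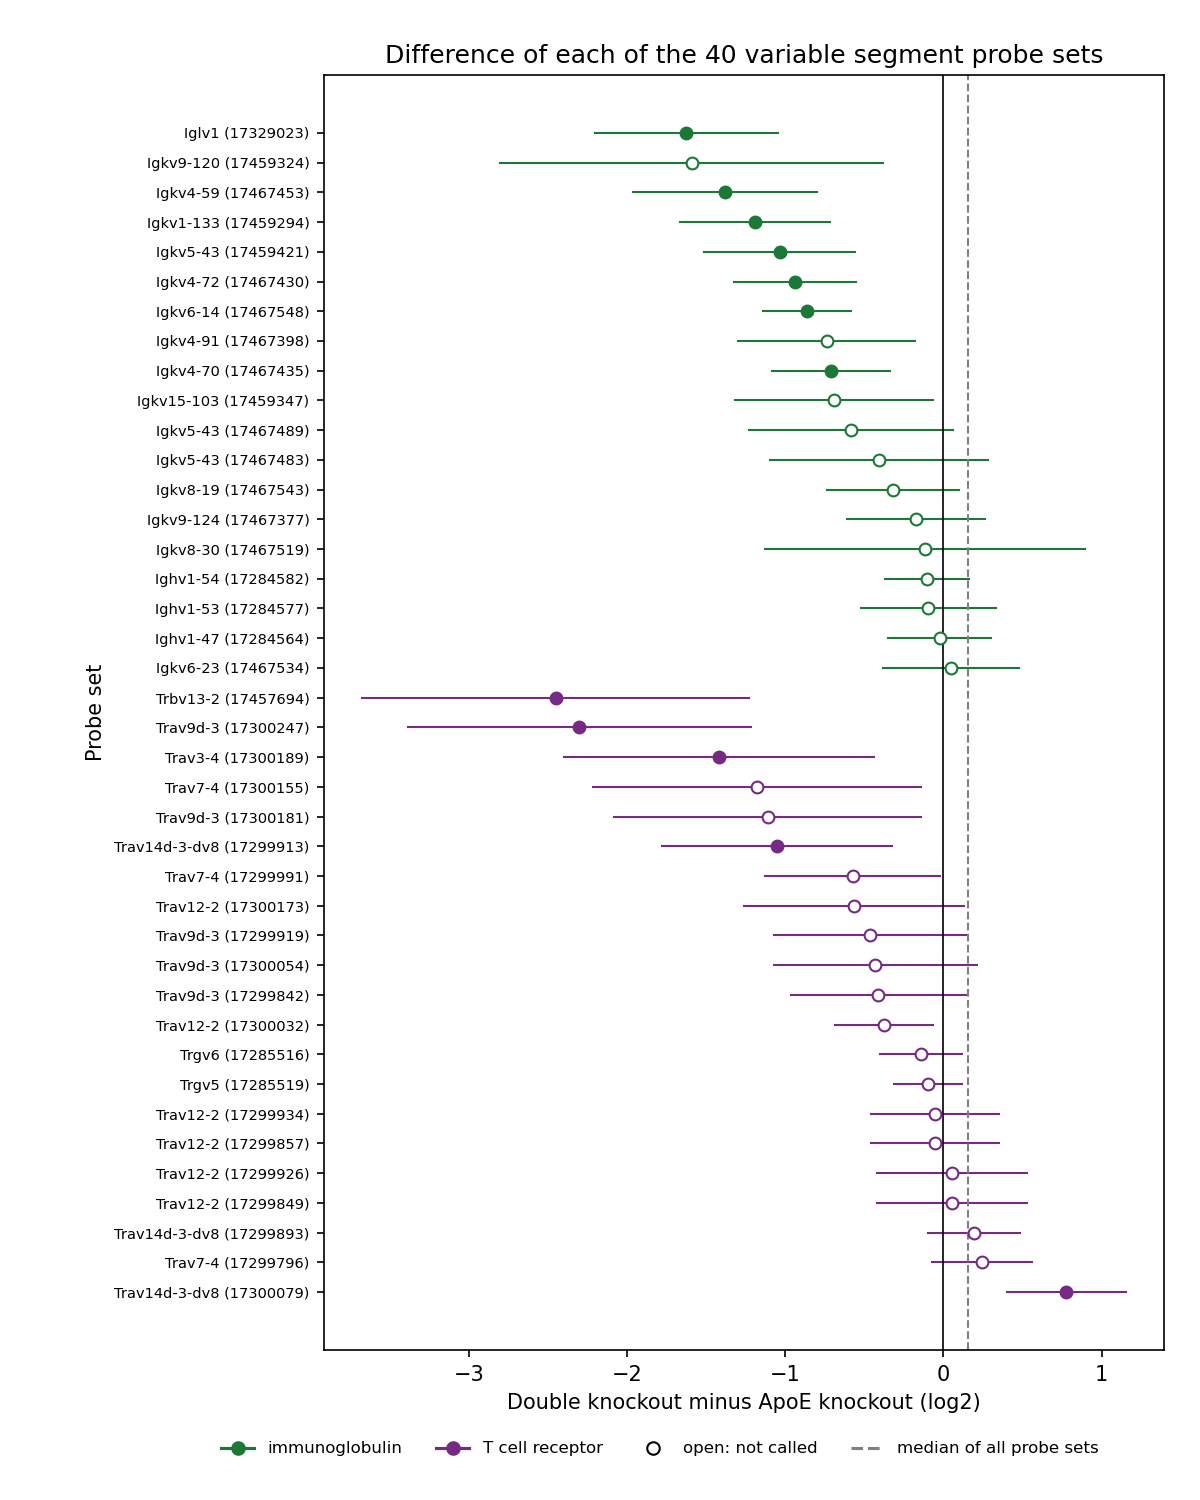
Difference of each of the 40 probe sets, double knockout minus ApoE knockout on the log2 scale (horizontal axis), with its 95% interval, for immunoglobulin (green) and T cell receptor (purple) segments ordered by size (vertical axis), with filled points for called probe sets, a solid line at 0 and a dashed line at the median of all probe sets, 0.15. Of the 40, 34 lie below 0, 11 are called lower and 1 is called higher.

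Of the 21 T cell receptor probe sets, 4 were lower (19%) and 1 was higher (4.76%), with a median difference of -0.41 and 16 differences below 0. Over the whole array 4.72% were lower and 21.1% higher. After quantile normalization the counts were 7 lower and 0 higher, after centring on array medians 7 and 1, and after centring on the receptor probe sets 8 and 0. In that order 6.98%, 15.3% and 10.7% of all probe sets were lower, and 7.17%, 6.84% and 1.73% higher. The 4 lower calls were among those under each of these scalings. With the deposited values 2 were lower when any of ApoE knockout replicates 2, 3 and 4 or double knockout replicates 1, 2, 3 and 4 was left out. Below the receptor level 2 of 8 were lower and 1 higher, where 1.77% of all probe sets were lower and 27% higher. At or above it 2 of 13 were lower and 0 higher, where 7.46% of all were lower and 15.7% higher. The 21 probe sets are not independent, since 6 carry the symbol Trav12-2, 5 Trav9d-3, 3 Trav7-4 and 3 Trav14d-3-dv8, and 4 of the Trav12-2 probe sets form 2 pairs with identical values.

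The largest fall belonged to the beta chain. Trbv13-2, the segment formerly called Vbeta8.2, is used by many conventional T cells and by invariant natural killer T cells. It measured 6.24, 8.86, 8.51, 7.89 and 6.04 in ApoE knockout replicates 1 to 5 and 5.56, 5.37, 4.88, 4.11 and 5.36 in double knockout replicates 1 to 5. The ApoE knockout aortas split into replicates 2, 3 and 4, high, and replicates 1 and 5, nearer to the highest double knockout value of 5.56 but above it. Trbv13-2 was 5.47-fold lower (-2.45, SE 0.55, adjusted p = 0.0108), with a double knockout mean of 5.06 below the receptor level. Without ApoE knockout replicates 2, 3 and 4 the difference was -1.09 (adjusted p = 0.131).

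Alpha chain segments gave mixed results. The names with a d mark copies in the duplicated cluster of the mouse alpha locus, whose near-identical sequences may share signal, so the values of single segments are uncertain. Trav9d-3, on its probe set 17300247, measured 9.69, 11.28, 10.82, 10.63 and 9.08 in the ApoE knockout and 9.08, 8.14, 7.13, 7.06 and 8.59 in the double knockout. Replicates 2, 3 and 4 were again the highest, and ApoE knockout replicate 5 and double knockout replicate 1 nearly met. The difference was -2.30 (SE 0.49, adjusted p = 0.0085, 4.93-fold lower), and -1.39 (adjusted p = 0.185) without ApoE knockout replicates 2, 3 and 4. The other 4 Trav9d-3 probe sets had differences of -0.41 to -1.11 and were not called. Their mean levels were 5.87 to 6.40, beside 9.15 for 17300247.

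Trav3-4 measured 2.92, 5.15, 4.40, 3.52 and 2.46 in the ApoE knockout and 2.45, 2.12, 2.07, 1.97 and 2.74 in the double knockout (-1.42, SE 0.44, adjusted p = 0.0390). Its ranges overlapped through ApoE knockout replicate 5, and both means lay below the receptor level. The call was lost when any of ApoE knockout replicates 2, 3 and 4 or double knockout replicates 1, 2, 3 and 4 was left out (adjusted p up to 0.0865). Without ApoE knockout replicates 2, 3 and 4 together the Trav3-4 difference was -0.42 (adjusted p = 0.312).

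Trav14d-3-dv8, a segment that can also join to the delta chain, had 3 probe sets that disagreed. Probe set 17299913 measured 4.65, 6.39, 5.97, 5.68 and 4.57 in the ApoE knockout and 4.47, 4.59, 4.04, 4.48 and 4.43 in the double knockout, lower by -1.05 (SE 0.33, adjusted p = 0.0388). Here too ApoE knockout replicates 2, 3 and 4 were high while replicates 1 and 5 were near the double knockout, and without those 3 arrays the difference was -0.21 (adjusted p = 0.448). The call held in 2 of the 10 fits with an array left out, those without ApoE knockout replicate 1 or 5 (adjusted p up to 0.0863 in the others). Probe set 17300079 measured 3.86, 4.77, 4.20, 4.43 and 4.02 against 5.00, 5.01, 4.82, 4.96 and 5.38, higher by 0.78 (SE 0.17, adjusted p = 0.0094) without overlap. This rise, from values below the receptor level, was not called after quantile normalization (0.50, adjusted p = 0.0775) or after centring on the receptor probe sets (0.46, adjusted p = 0.122). The third probe set, 17299893, had a difference of 0.19 (adjusted p = 0.290).

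Trav12-2 and Trav7-4 had 0 called of 6 and of 3 probe sets by limma, and 1 and 2 of them were lower at an unadjusted p under 0.05. Among the Trav12-2 probe sets, 17300173 measured 7.03, 8.54, 8.10, 7.95 and 6.84 in the ApoE knockout and 6.82 to 7.64 in the double knockout (-0.56, adjusted p = 0.203). The 2 pairs with identical values had differences of -0.05 and 0.06. Trav7-4 ranged from -1.18 (adjusted p = 0.0860) to 0.24 (adjusted p = 0.228) over its probe sets.

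**Figure D3:**
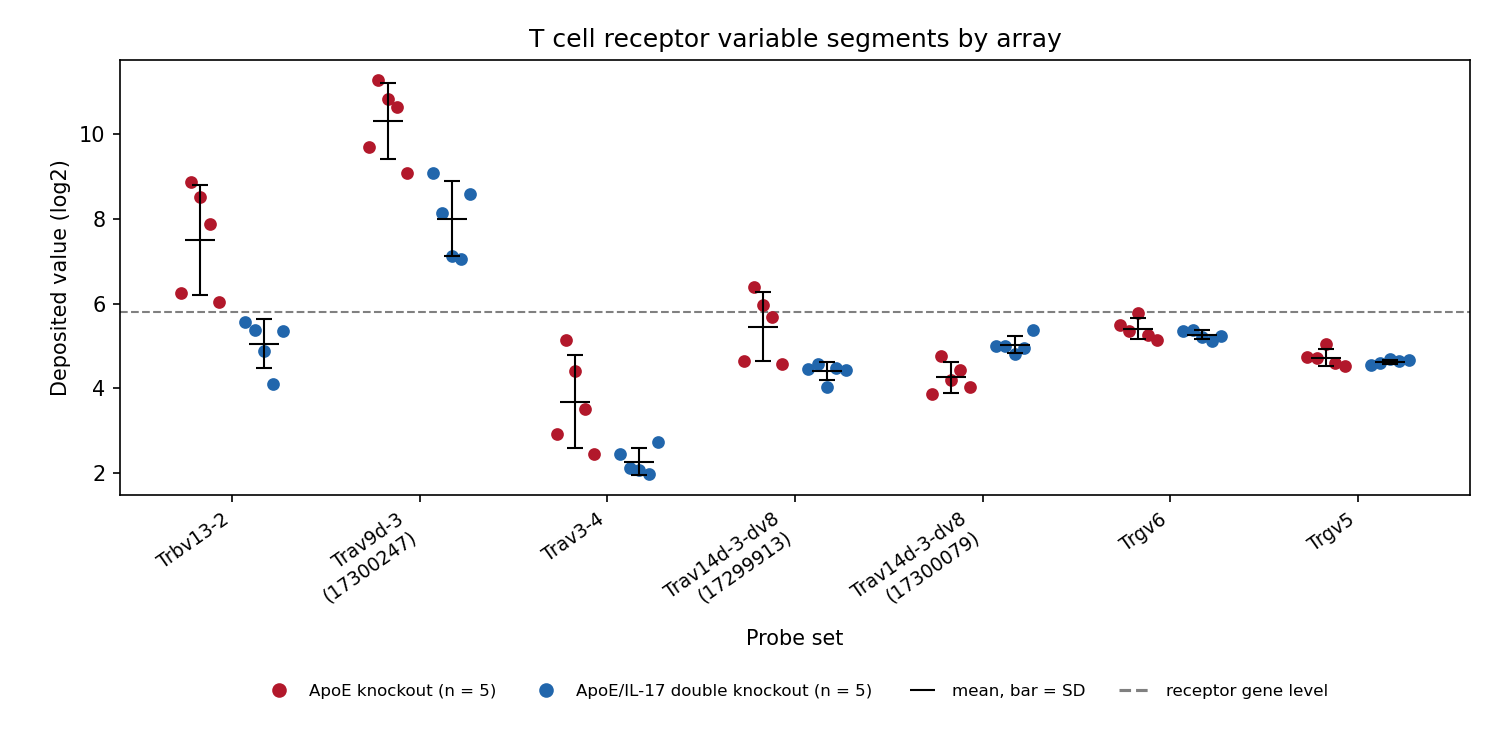
Deposited log2 value (vertical axis) of the 5 called T cell receptor segment probe sets, of Trgv6 and of Trgv5 (horizontal axis), for 5 ApoE knockout (red) and 5 double knockout (blue) aortas, drawn from replicate 1 at the left to 5 at the right, with the mean and SD as bars and the receptor level of 5.79 as a dashed line. In Trbv13-2, Trav9d-3, Trav3-4 and Trav14d-3-dv8 (17299913) the 3 high red points are replicates 2, 3 and 4, while Trgv6 and Trgv5 stay within narrow, overlapping ranges.

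The gamma chain segments include Trgv6, which marks gamma delta T cells that are known makers of IL-17 in several tissues. Trgv6 measured 5.51, 5.35, 5.77, 5.26 and 5.15 in the ApoE knockout and 5.36, 5.38, 5.22, 5.13 and 5.23 in the double knockout. The ranges overlapped and ApoE knockout replicates 2 and 4 were not raised (-0.14, SE 0.12, 95% interval -0.40 to 0.12, adjusted p = 0.383). Trgv5, known from the gamma delta T cells of the epidermis, measured 4.73, 4.71, 5.04, 4.60 and 4.53 against 4.55, 4.59, 4.68, 4.63 and 4.66 (-0.10, 95% interval -0.32 to 0.11, adjusted p = 0.464). Both lay below the receptor level in every aorta. After quantile normalization, which moved the median of all probe sets from 0.15 to 0.01, Trgv6 (-0.39, adjusted p = 0.0487) and Trgv5 (-0.37, adjusted p = 0.0288) were called lower. Trgv6 was not called after centring on array medians (-0.35, adjusted p = 0.0569) or on the receptor probe sets (-0.47, adjusted p = 0.0937). Of 11 probe sets for gamma delta and IL-17 producing T cells, 0 were called by limma as deposited. At an unadjusted p under 0.05, 2 were lower and 3 higher. As deposited, Cd163l1 was at 0.35 (adjusted p = 0.0556) and the Maf probe set 17513289 at -0.27 (adjusted p = 0.0557). Under the other scalings 2 or 3 were lower, where 6.98% to 15.3% of all probe sets were. After quantile normalization these were Ccr6 (-0.49, adjusted p = 0.021) and the Maf probe set 17505903 (-0.44, adjusted p = 0.0477).

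ApoE knockout replicates 2, 3 and 4 were the 3 highest of the 10 aortas in 11 of 21 T cell receptor probe sets (52.4%), in 1 of 19 immunoglobulin probe sets (5.26%) and in 2.15% of all probe sets. Among the 5 ApoE knockout aortas alone, they were the 3 highest in 17 of 21 (81%), 3 of 19 (15.8%) and 10.9%. The 4 T cell receptor exceptions within the ApoE knockout were Trgv6, Trgv5, the Trav7-4 probe set 17299991 and the Trav14d-3-dv8 probe set 17299893, a list read off after the values were seen. The median deviation of the T cell receptor probe sets from their 10-array means was 0.66, 0.36 and 0.42 in those 3 aortas and -0.18 and -0.42 in ApoE knockout replicates 1 and 5. Double knockout aortas lay between -0.34 and -0.05, so the second pair fell within or just below their range. For the immunoglobulin probe sets the same measure ran from 0.12 to 0.72 in the ApoE knockout, highest in replicates 4 and 1, and from -0.44 to -0.13 in the double knockout. Without ApoE knockout replicates 2, 3 and 4, 0 of 21 T cell receptor probe sets were lower and 1 was higher by limma. Of all probe sets 0.622% were lower and 2.95% higher in that fit. At an unadjusted p under 0.05, 3 T cell receptor probe sets were lower and 4 higher. Their median difference was 0.17, beside -0.41 with all arrays.

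**Figure D4:**
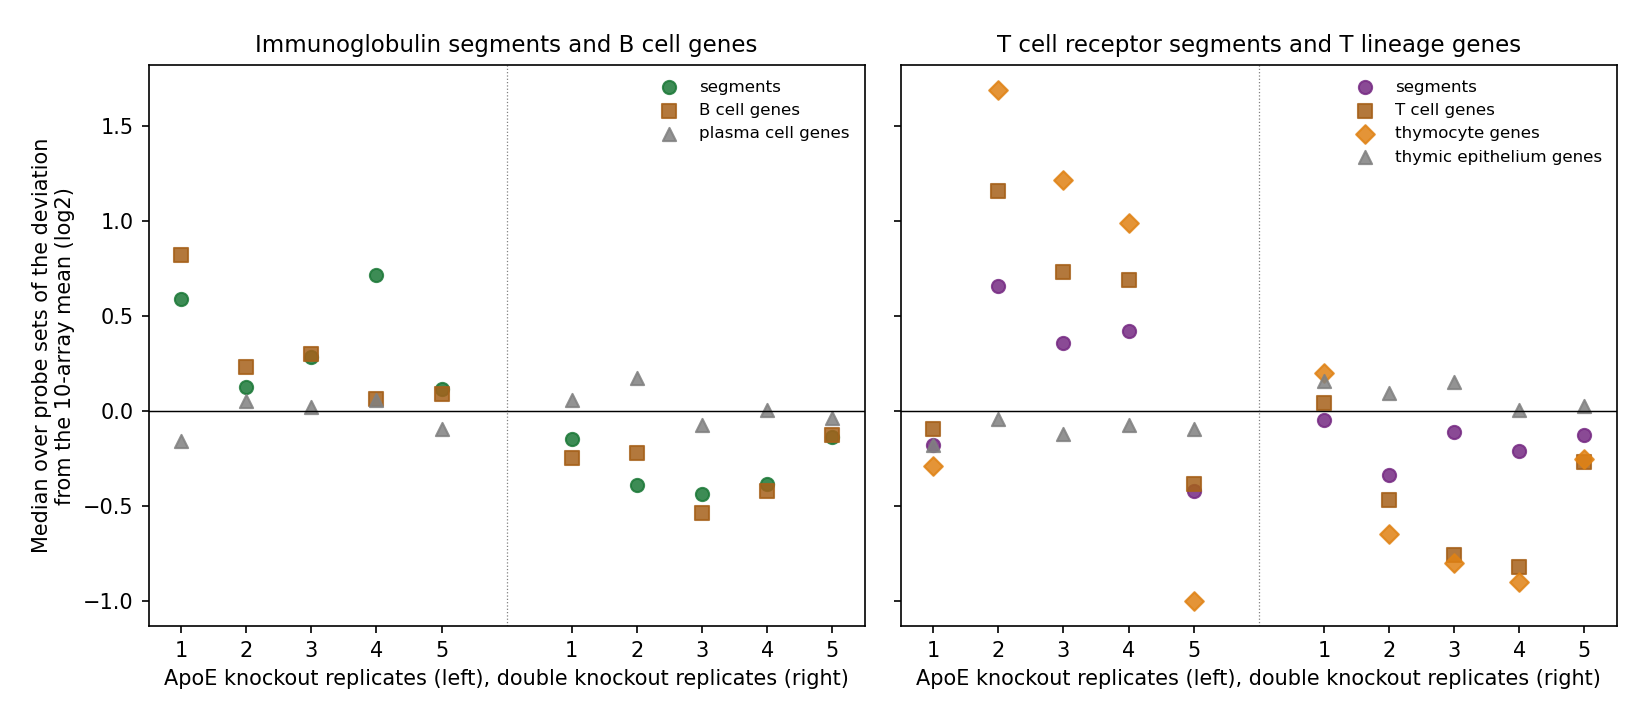
Median over probe sets of the deviation from the 10-array mean, in log2 units (vertical axis), for each aorta (horizontal axis), with immunoglobulin segments, B cell and plasma cell genes in the left panel and T cell receptor segments, T cell, thymocyte and thymic epithelium genes in the right panel. T cell receptor segments reach 0.66, 0.36 and 0.42 in ApoE knockout replicates 2, 3 and 4, where T cell and thymocyte genes are highest too, whereas immunoglobulin segments lie above 0 in all 5 ApoE knockout aortas. The thymocyte genes include Dntt and Rag2, by which replicates 2, 3 and 4 were picked out.

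T cell genes were also high in ApoE knockout replicates 2, 3 and 4. Cd3g, a chain of the CD3 complex that carries the receptor's signal, measured 7.66, 9.83, 9.43, 9.06 and 7.0 in the ApoE knockout and 7.16, 6.59, 5.91, 5.65 and 6.68 in the double knockout. Replicates 2, 3 and 4 stood far above the rest, and the groups overlapped (-2.20, SE 0.53, adjusted p = 0.0140). Cd3d was lower (-1.04, adjusted p = 0.0239) and Cd3e did not pass (-1.32, adjusted p = 0.0533). Of 15 T cell genes 6 were lower (40%, beside 4.72% of all probe sets) and 0 higher. At an unadjusted p under 0.05 the counts were 12 and 0. Under the other scalings 8 to 11 were lower, where 6.98% to 15.3% of all probe sets were. ApoE knockout replicates 2, 3 and 4 were the 3 highest of the 10 aortas in 12 of the 15. Ccr7, which guides T cells and dendritic cells to lymph nodes, was lower without overlap (-1.20, adjusted p = 0.0019), with ApoE knockout values of 7.39 to 8.15 and its highest value in replicate 1. Cd2, an adhesion receptor, was lower by -0.70 (adjusted p = 0.0197).

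Natural killer cells share surface receptors with T cells but do not rearrange these segments. Of 8 natural killer cell genes 5 were lower (62.5%) and 1 higher (12.5%), and 5 and 0 under the other scalings. Of all probe sets 4.72% were lower and 21.1% higher as deposited. Nkg7 (-0.79, adjusted p = 0.0081) and Klrd1 (-0.67, adjusted p = 0.0124) had the smallest p. ApoE knockout replicates 2, 3 and 4 were together the 3 highest of the 10 aortas in 0 of these 8 genes. The median deviation of these genes from their 10-array means was still highest in replicates 3 (0.65) and 2 (0.50). It was -0.03, -0.11 and 0.30 in ApoE knockout replicates 1, 4 and 5, and -0.34 to -0.01 in the double knockout.

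Of 12 probe sets for recombination and the pre-antigen receptors, 0 were lower and 2 higher by limma. At an unadjusted p under 0.05, 1 was lower and 3 were higher. The share higher by limma, 16.7%, lay below the 21.1% of all probe sets. The 2 were Prkdc, a DNA repair kinase (0.27, adjusted p = 0.0363), and Igll1, a surrogate light chain (0.42, adjusted p = 0.0432). Prkdc and Igll1 were not called under any other scaling, and Prkdc turned to -0.06 after centring on the receptor probe sets. The counts were 1 lower and 0 higher after quantile normalization, 2 and 0 after centring on array medians, and 1 and 0 after centring on the receptor probe sets. Of all probe sets 6.98%, 15.3% and 10.7% were lower under these scalings. Xrcc6, a DNA end-joining factor, was lower in all 3 (-0.38 as deposited with adjusted p = 0.0641, then adjusted p = 0.0427, 0.0122 and 0.0254). Xrcc4, another end-joining factor, was lower after centring on array medians alone (-0.34, adjusted p = 0.0305). Thymocyte genes, a list made after the data were seen that shares Cd4, Cd8a, Cd8b1 and Themis with the T cell list, had 0 of 13 called by limma and 5 lower at an unadjusted p under 0.05. After quantile normalization 0 were called as well, after centring on array medians 2 were lower, Cd4 and Ccr9 (adjusted p = 0.0460 and 0.0448), and after centring on the receptor probe sets 3, with Arpp21 as the third (adjusted p = 0.0314, 0.0318 and 0.0461). Dntt and Rag2, by which ApoE knockout replicates 2, 3 and 4 were picked out, belong to the thymocyte list. Those replicates were the 3 highest of the 10 aortas in 11 of the 13 thymocyte genes, Dntt and Rag2 included. An exception was Ptcra, the pre-T cell receptor alpha chain, at 6.16 to 6.47 in the ApoE knockout and 6.44 to 6.61 in the double knockout. The median deviation of the thymocyte genes was 1.69, 1.22 and 0.99 in those 3 aortas, and at most 0.20 in the others. Of 6 thymic epithelium genes, 0 were lower and 1 higher (16.7%, beside 21.1% of all probe sets). This was Psmb11 (0.36, not called under the other scalings). The median deviation of the thymic epithelium genes in the 3 aortas was -0.04 to -0.12. Foxn1, which defines thymic epithelium, measured 5.51 to 5.57 in the 3 aortas and 5.43 and 5.70 in ApoE knockout replicates 1 and 5. The part of thymocytes or other T cells in the T cell receptor result was not tested.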

How the data were processed

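Total RNA of 10 aortas was hybridised, per the labels' protocols, to Mouse Gene 2.0 ST arrays of Affymetrix. The authors deposited 1 log2 value per probe set and array. That the log base is 2 was judged from their range. The submitters' processing notes name limma without a role. Background correction, normalization, summarization, build and scan batch: not given in the sources used here. Names came from the platform annotation: 23521 had 1 symbol, 1814 several and 16010 none. Of the former, 23328 matched the GRCm38.p6 gene table by identifier, the 40 members included.

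All probe sets were fitted by group alone (limma 3.58.1, lmFit and eBayes, R 4.3.3), with two-sided tests, Benjamini-Hochberg adjustment and a threshold of 0.05. Dim probe sets were kept, and 5 arrays per group limit the precision. The members and gene lists were chosen with earlier results of these data known. The lists held immunoglobulin constant, CD3, B cell, plasma cell, T cell, gamma delta T cell, recombination, natural killer, macrophage, smooth muscle, endothelial and fibroblast genes. Thymocyte and thymic epithelium lists and the fit without ApoE knockout replicates 2, 3 and 4 were added after seeing values. Named segments were up to 8 called members per subgroup without overlap, the member with the highest mean per segment class and the measured canonical segments (Trbv13-2, Igkv4-91 and Trgv6), with up to 2 genes of smallest p per marker list. Other members and genes were named after their values were seen.

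Alternatives covered normalization, a filter on dim probe sets, the probe sets fitted, the prior, the threshold, array weights, a replicate block and each array left out. On simulated data for this comparison with 41345 probe sets, the code recovered 78% of 100 probe sets shifted by 1 (log2) and 98% of 100 shifted by 2, with 5 false calls. No member sequence was printed. Figures were drawn with matplotlib 3.10.9.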

Additional observations from a re-analysis of the deposited data

Results flagged for a closer look

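Of 106 groups of 5 arrays examined, over 53 probe sets, 4 had an aorta far from the other 4, where chance gives about 5% of groups. Igkv15-103 was 7.76 in ApoE knockout replicate 1, above 6.29 to 6.42 in the others. The Igkv5-43 probe set 17467483 was 2.70 in double knockout replicate 5, below 3.25 to 3.45. The Trav14d-3-dv8 probe set 17299913 was 4.04 in double knockout replicate 3, below 4.43 to 4.59. The Ighg3 probe set 17284614 was 6.40 in ApoE knockout replicate 3, above 4.45 to 4.86.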

How the results depend on the processing

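The count of 7 lower immunoglobulin probe sets was 11 after centring on the receptor probe sets, 4 of 8 among probe sets above the receptor level and 1 without ApoE knockout replicates 2, 3 and 4, and ran from 7 to 8 with each array left out. It was 6 to 10 under the other alternatives, and 0 were higher under any that was run. The 4 lower T cell receptor probe sets became 7 after quantile normalization, 7 after centring on array medians, 8 after centring on the receptor probe sets, 2 of 13 above the receptor level, 2 with the replicate block, 1 at an adjusted p of 0.01 and 0 without ApoE knockout replicates 2, 3 and 4. With each array left out they ran from 2 to 6, at 2 without ApoE knockout replicate 2, 3 or 4 or double knockout replicate 1, 2, 3 or 4. The 1 higher T cell receptor probe set became 0 after quantile normalization, after centring on the receptor probe sets, above the receptor level and with 1 probe set per symbol. Of all probe sets, 10692 were called, of which 81.8% were higher. This became 5851 (50.7% higher) after quantile normalization and 5127 (14% higher) after centring on the receptor probe sets, and centring on array medians gave 30.9% higher. The count was 5350 above the receptor level, 7118 with 1 symbol, 6721 with 1 probe set per symbol, 3924 at an adjusted p of 0.01 and 1477 without the 3 arrays. The fit without the 3 arrays has fewer arrays and also lacks those aortas, which cannot be told apart in its loss of calls. The cause of these changes was not tested. Among named segments, Ighv1-53 ran from -0.190 to 0.0453 with each array left out and was above 0 only without double knockout replicate 4, Trav3-4 lost its call in 7 of 10 fits with an array left out and the Trav14d-3-dv8 probe set 17299913 in 8 of 10. The replicate numbers do not pair the aortas: same-number correlations ran from -0.11 to 0.20, and 1 of 5 correlated best with its own number. With the replicate block the 7 immunoglobulin calls were made again, 2 T cell receptor calls were lost and 8773 probe sets were called. Counting identical profiles once changed no count. How many of the low values lie above background is not known.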

Other observations

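Probe sets that carry several symbols, or a symbol outside the rule, also cover these loci. The probe set shared by Igkv4-53, Igkj1 and Igkv6-23 was 11.60 ± 0.46 in the ApoE knockout (SD, n = 5) and lower by 1.61 in the double knockout (limma adjusted p = 0.0129), with double knockout replicate 1, at 11.21, inside the ApoE knockout range. The probe set shared by Igkv9-124 and Igkv4-70 went from 11.03 to 9.79 (-1.24, adjusted p = 0.0111). Those shared by Ighg3, Ighv1-47 and Ighm (-1.55, adjusted p = 0.0201) and by Ighv1-54, Igkv1-135 and Ighm (-1.01, adjusted p = 0.0140) were lower as well, the last without overlap. Which of the symbols gave the signal of these probe sets cannot be told apart, and the Ighv1-47 and Ighv1-54 probe sets of their own were not called. Igkj1, a kappa joining segment, was not called on its own probe set (-0.67, adjusted p = 0.162). Ighv1-72 with Ighm had a difference of -0.40 (adjusted p = 0.0574) and A430107P09Rik with Trav3n-3 one of -0.65 (adjusted p = 0.0684). The heavy chain segment Igh-VS107 had 2 probe sets that disagreed, at -0.13 (adjusted p = 0.689) and 0.92 (adjusted p = 0.0136), the second with both means below the receptor level.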
